A study of Mus musculus with 6 samples.

Results

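Il6, Lif, Osmr, Stat3, Socs3, Cebpd, Nfkbia, Nfkbiz, Tnfaip3 and Map3k8 are 10 genes at the junction of the NF-kB and JAK-STAT signalling routes, measured here in single cells from the back of the mouse eye. They are 10 of the 33696 genes counted, and they were chosen from earlier results on these data, by the contrast of tropicamide against saline in each cell class. Their values under that contrast are therefore given as a description, with fold changes and counts of calls but no p. Tropicamide blocks muscarinic acetylcholine receptors and is used as an eye drop to widen the pupil and paralyse the ciliary muscle. In the tropicamide group, 6 drops were given at intervals of 10 minutes and the eyes were taken after a wait of 1 hour. The saline group received saline at the same interval, with no number of drops or wait stated for it. The labels call the ciliary muscle relaxed in the tropicamide group and contracted in the saline group. Each group has 12 mice, whose right eyes were pooled by 4 into 3 libraries, so a replicate is a pool of 4 eyes. Strain, genotype, age and sex of the eye donors are not stated. Cornea, lens, iris and ciliary body were cut away, which leaves retina, choroid and posterior sclera.

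Cytokines of the interleukin-6 family, among them Il6 and Lif, bind receptors that share the signalling chain gp130 and activate Janus kinases, which phosphorylate the transcription factor Stat3. Stat3 switches on Socs3, whose protein binds gp130 and its kinases and so closes a negative feedback loop. NF-kB is held in the cytoplasm by IkB-alpha, the product of Nfkbia, until inflammatory inputs release it, and it then restores its own brakes, Nfkbia and the ubiquitin-editing enzyme Tnfaip3 (A20), while the nuclear cofactor Nfkbiz directs it to genes such as Il6. In the mouse retina, Lif made by Müller glia, the radial support cells, is known to act on gp130 and Stat3 in photoreceptors and glia after injury. Transcripts such as Socs3, Nfkbia and Nfkbiz are also known to be induced within minutes to hours when tissue is cut and digested into single cells.

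After filtering, 60096 cells remained, and their unique molecular identifiers (UMIs, one per captured transcript molecule) were summed per pool and cell class and given as CPM, that is, scaled so that every sum has the same total. A class has the suffix "-like" where its clusters met the naming limits for the fixed marker genes of a cell type. It keeps a cluster number where they did not, also where some markers were present. Rod-like cells were 47892 of the cells, with sums of 13094270 to 19137923 UMIs per tropicamide pool and 16366236 to 19108498 per saline pool. The other classes with at least 30 cells in every pool were fibroblast-like (2259 cells), retinal pigment epithelium-like (1798), cluster A7 (1579, led by Hbb-bs), endothelial-like (1006), cluster B2 (840, led by Serpine2, Myoc, Ccn2 and Smoc1), cluster B5 (581, led by Ptn, Schip1 and Edn3), Müller glia-like (557), cluster A14 (482) and cone-like (464). Cluster A7 scored best for rod markers (0.788, next list 0.096), and 6 rod transcripts summed to 33811 to 38898 CPM in its pools. It was left unnamed because Hbb-bs, a marker of another list, led its genes. Clusters B2 and B5 scored best for fibroblast markers (0.511 and 0.503), too low for a name. The same 6 pools stand behind every class, so classes are not independent of each other, and 413 barcodes occurred in more than 1 library.

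The promoters of 4 of the genes are shown because they hold, or lack, the letters that Stat3 and NF-kB are known to bind. They are the 250 bases before the gene's start in RefSeq, build GRCm38.p6, written 5' to 3' on the gene's strand in lower case, with motif matches in capitals. Socs3 lies at chr11:117969367-117969616 (minus strand), Stat3 at chr11:100939541-100939790 (minus strand), Nfkbia at chr12:55492648-55492897 (minus strand) and Il6 at chr5:30012864-30013113 (plus strand). The counts were made on GRCm39, and no coordinate was carried between the builds.
Socs3: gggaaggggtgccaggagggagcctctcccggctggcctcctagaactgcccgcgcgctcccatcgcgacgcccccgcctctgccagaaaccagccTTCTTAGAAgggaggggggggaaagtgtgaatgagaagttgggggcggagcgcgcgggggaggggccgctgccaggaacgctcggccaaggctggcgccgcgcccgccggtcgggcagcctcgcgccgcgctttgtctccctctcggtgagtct
Stat3: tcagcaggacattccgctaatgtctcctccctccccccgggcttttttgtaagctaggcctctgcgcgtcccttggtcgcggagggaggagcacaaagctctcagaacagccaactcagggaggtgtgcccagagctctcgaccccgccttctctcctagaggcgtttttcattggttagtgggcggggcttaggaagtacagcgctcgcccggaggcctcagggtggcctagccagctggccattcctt
Nfkbia: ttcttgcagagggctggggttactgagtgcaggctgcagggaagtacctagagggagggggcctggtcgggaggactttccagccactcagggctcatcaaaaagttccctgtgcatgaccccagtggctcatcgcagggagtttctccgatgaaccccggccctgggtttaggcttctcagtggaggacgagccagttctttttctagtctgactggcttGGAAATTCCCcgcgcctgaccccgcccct
Il6: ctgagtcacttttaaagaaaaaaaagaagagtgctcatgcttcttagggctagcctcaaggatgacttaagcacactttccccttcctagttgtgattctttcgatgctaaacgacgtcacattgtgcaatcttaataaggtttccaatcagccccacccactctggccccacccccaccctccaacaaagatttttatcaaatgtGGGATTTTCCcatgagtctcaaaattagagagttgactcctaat
The capitals in Socs3 mark the STAT element TTCNNNGAA, 154 to 146 bases before the start. The capitals in Nfkbia and Il6 mark the kappaB consensus, 29 to 20 bases before the Nfkbia start and 44 to 35 bases before the Il6 start. Neither motif, nor TATAAA, occurred in the Stat3 window. Of the 10 genes, 7 had a window in the RefSeq table. In the other three matched genes the kappaB consensus occurred in Lif, 178 to 169 bases before the start, and at both 125 to 116 and 12 to 3 bases before 1 of the listed Tnfaip3 starts, and no motif occurred in Osmr. Of all 32851 promoter windows of this length, searched on both strands, 7.25% held the kappaB consensus, 7.02% held TTCNNNGAA and 12.4% held TATAAA. A match is a description of the letters and not of binding.

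The ligands were concentrated in few classes. Il6, the inflammatory cytokine, averaged 218 ± 94.4 CPM in smooth muscle-like cells and 152 ± 88.7 CPM in fibroblast-like cells (SD over the 6 pools, here and for the levels below). By group, the means were 251 CPM with tropicamide and 185 CPM with saline in smooth muscle-like cells, and 98.2 CPM with tropicamide and 205 CPM with saline in fibroblast-like cells, so their order depended on the group. Il6 followed at 61.6 ± 25.1 CPM in cluster B2 and 29.6 ± 37.4 CPM in pericyte-like cells. Fibroblast-like cells, 3.76% of all cells, held 78.6% of all Il6 UMIs, and no Il6 UMI was found in the retinal pigment epithelium-like cells. Lif, the leukaemia inhibitory factor, was rare: its pools ranged over 4.86 to 33.1 CPM in cluster B5 and 0 to 38.0 CPM in Müller glia-like cells. Cluster B5 held 39.2% of all Lif UMIs with 0.967% of the cells. Fibroblast-like and B5 cells were deep, with pool medians of 13899 to 15816 and 8874 to 10780 UMIs, against 2021 to 2255 in rod-like cells. Their share of the UMIs of all genes was therefore above their share of cells. The ranges of the pools overlapped between every pair of neighbouring classes in the order of levels for both genes, over the 21 classes of at least 100 cells.

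The receptor and the transducer were more widely spread. Osmr, the oncostatin M receptor chain that pairs with gp130, averaged 437 ± 197 CPM in pericyte-like, 272 ± 98.2 CPM in smooth muscle-like, 228 ± 60.0 CPM in endothelial-like cells and 202 ± 28.8 CPM in cluster B2. Stat3 was present in every class, at 635 ± 132 CPM in pericyte-like cells, 562 ± 49.5 CPM in cluster B5, 332 ± 56.1 CPM in rod-like cells and 30.6 ± 9.07 CPM in retinal pigment epithelium-like cells, where it was lowest. Of the 20 pairs of neighbouring classes in the Stat3 order, the pools overlapped in 19.

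Among the classes of at least 100 cells, the feedback and target genes were high in vascular and stromal classes and low in photoreceptors, with Tnfaip3 as the exception. Socs3 averaged 1027 ± 78.9 CPM in endothelial-like cells, 969 ± 164 CPM in cluster B2, 923 ± 189 CPM in smooth muscle-like cells and 13.6 ± 2.41 CPM in rod-like cells. Cebpd, a transcription factor induced by Stat3, was highest in cluster B2 (1920.0 ± 172 CPM) and smooth muscle-like cells (1858 ± 487 CPM), and reached 1398 ± 331 CPM in Müller glia-like cells. Nfkbia averaged 1668 ± 205 CPM in endothelial-like cells and 1062 ± 196 CPM in smooth muscle-like cells. Nfkbiz averaged 817 ± 142 CPM in smooth muscle-like cells and 463 ± 121 CPM in Müller glia-like cells, next in the order, and 443 ± 58.3 CPM in endothelial-like cells. Map3k8, the kinase TPL2 that carries inflammatory signals to ERK, averaged 124 ± 44.1 CPM in smooth muscle-like cells and 111 ± 33.0 CPM in cluster B2. Tnfaip3 had a different order. Cluster A7, which scored best for rod markers, had 183 ± 42.1 CPM and rod-like cells had 182 ± 12.5 CPM. They stood at the top of the classes of at least 100 cells. Rod-like cells, 79.7% of all cells, held 81.1% of the Tnfaip3 UMIs and 2.75% of the Socs3 UMIs. Rod-like cells were shallow, so their share of the UMIs of all genes was below their share of cells. For 8 of the 10 genes the pools of every pair of neighbouring classes overlapped, so the orders separate distant classes only. Clusters B35 (led by Cd74 and Lyz2) and B36 (led by Ccl4 and Ccl3) are outside these orders. With 52 deep cells each, 0.0865% of all cells, they held 1.105% and 2.105% of the Nfkbiz UMIs. Their shares were 0.780% and 0.673% for Tnfaip3, 1.08% and 1.39% for Map3k8, and 1.26% and 0.696% for Nfkbia. For Cebpd they were lower, at 0.0682% and 0.0583%.

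**Figure D1:**
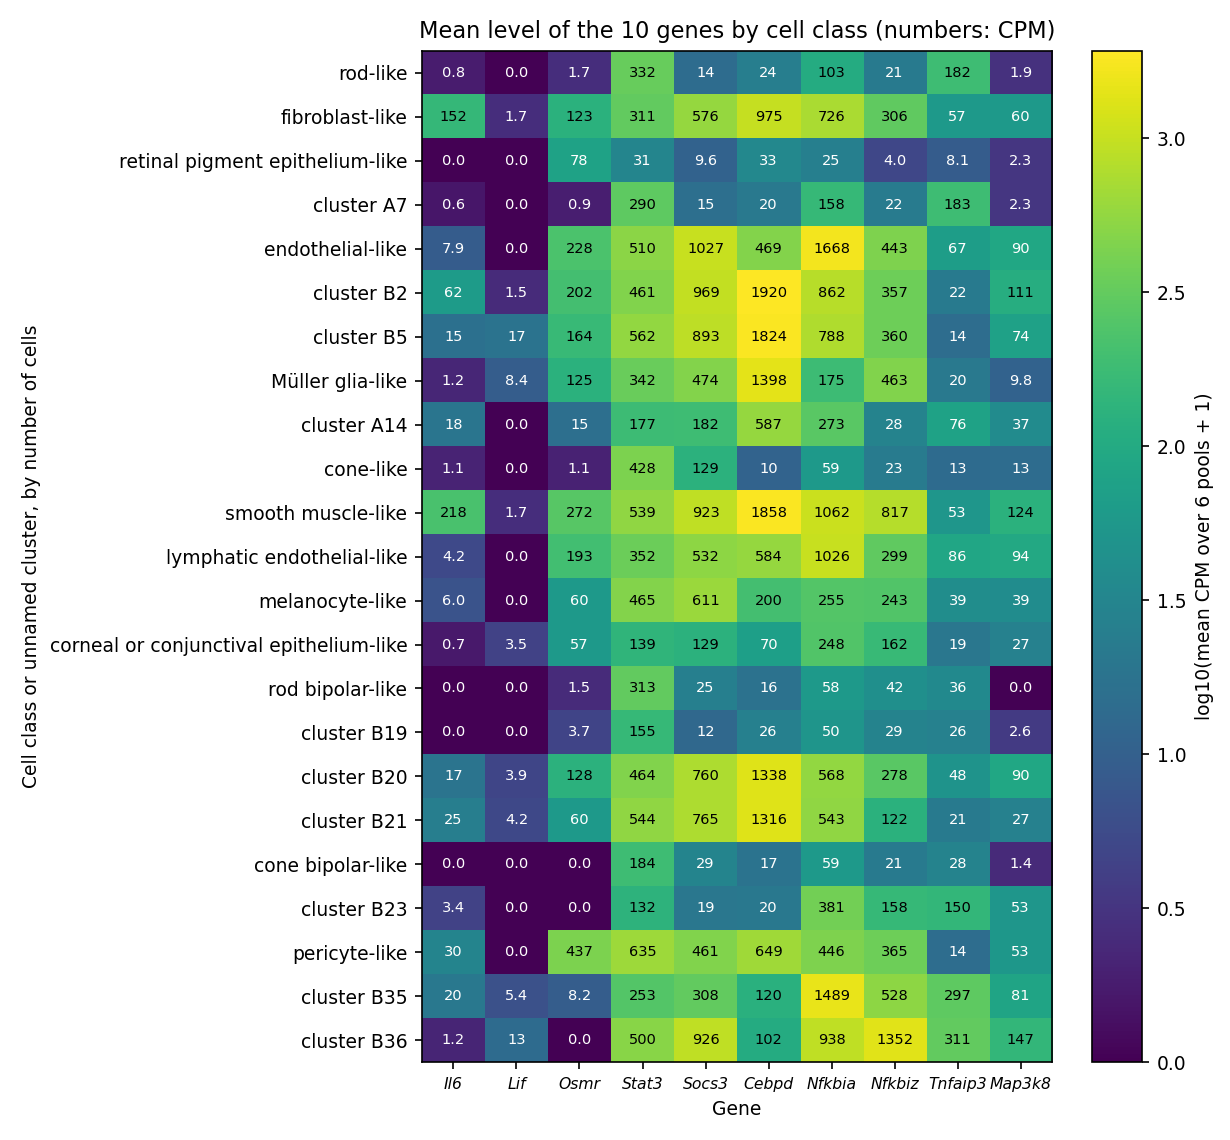
Heat map of the mean level of the 10 genes (columns) in the 21 classes of at least 100 cells and, in the lowest rows, the small clusters B35 and B36 with 52 cells each (rows, by number of cells); the number in a cell is the mean CPM over 6 pools and its colour is log10 of that mean plus 1. Il6 is highest in smooth muscle-like and fibroblast-like cells, while Tnfaip3 reaches 182 CPM in rod-like cells.

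In Müller glia-like cells Socs3 and Cebpd were lower in the tropicamide pools, while Nfkbia overlapped widely and sparse Tnfaip3 was higher in every tropicamide pool. Socs3 had 307, 304 and 247 CPM in the tropicamide pools, against 781, 589 and 616 CPM in the saline pools. It averaged 286 ± 33.4 CPM with tropicamide and 662 ± 104 CPM with saline (SD, n = 3 each), with a log2 fold change of -1.23 ± 0.17 (SE), and fell. All 3 tropicamide pools lay below all 3 saline pools, from 281 UMIs with tropicamide and 1240 with saline. Cebpd had 1071, 1226 and 1055 CPM in the tropicamide pools, against 1542, 1629 and 1865 CPM in the saline pools. The groups did not overlap, and Cebpd fell, with a log2 fold change of -0.61 ± 0.14.

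Nfkbiz had 319, 415 and 384 CPM in the tropicamide pools, against 666, 485 and 509.6 CPM in the saline pools. Its pools did not overlap either, with a log2 fold change of -0.60 ± 0.17, but the test did not call it. Stat3 had 200.3, 307 and 365 CPM in the tropicamide pools, against 411, 403 and 364 CPM in the saline pools. Here the highest tropicamide pool reached the lowest saline pool, and the log2 fold change was -0.46 ± 0.19. Nfkbia and Osmr, the receptor chain, overlapped widely, with log2 fold changes of -0.04 ± 0.30 and -0.18 ± 0.26.

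Of the 10 genes 6 passed the filter on low counts in Müller glia-like cells; 2 were called lower and none higher, where edgeR called 1.58% of all 6835 genes tested, and 3 did not overlap, against 17.9% of all genes. The members were chosen on this contrast, so nothing is read from these shares. The median log2 fold change of the 6 genes was -0.53, against -0.0026 over all genes tested, of which 50.3% were below 0. The other four were sparse. Tnfaip3 had 30.4, 29.2 and 22.8 CPM in the tropicamide pools, against 19.7, 4.55 and 15.9 CPM in the saline pools, from 27 UMIs in each group, with the tropicamide pools above the saline pools. Tnfaip3 averaged 182 CPM in rod-like cells. Summed rod transcripts in the Müller glia-like pools were also higher with tropicamide (3732 to 7131 CPM, against 2615 to 2935 CPM with saline). The part of rod RNA in the Tnfaip3 values was not tested. Map3k8 had 5 UMIs with tropicamide and 27 with saline, Il6 had 0 and 6, and Lif had 13 and 7, with all 13 in tropicamide pool 2.

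**Figure D2:**
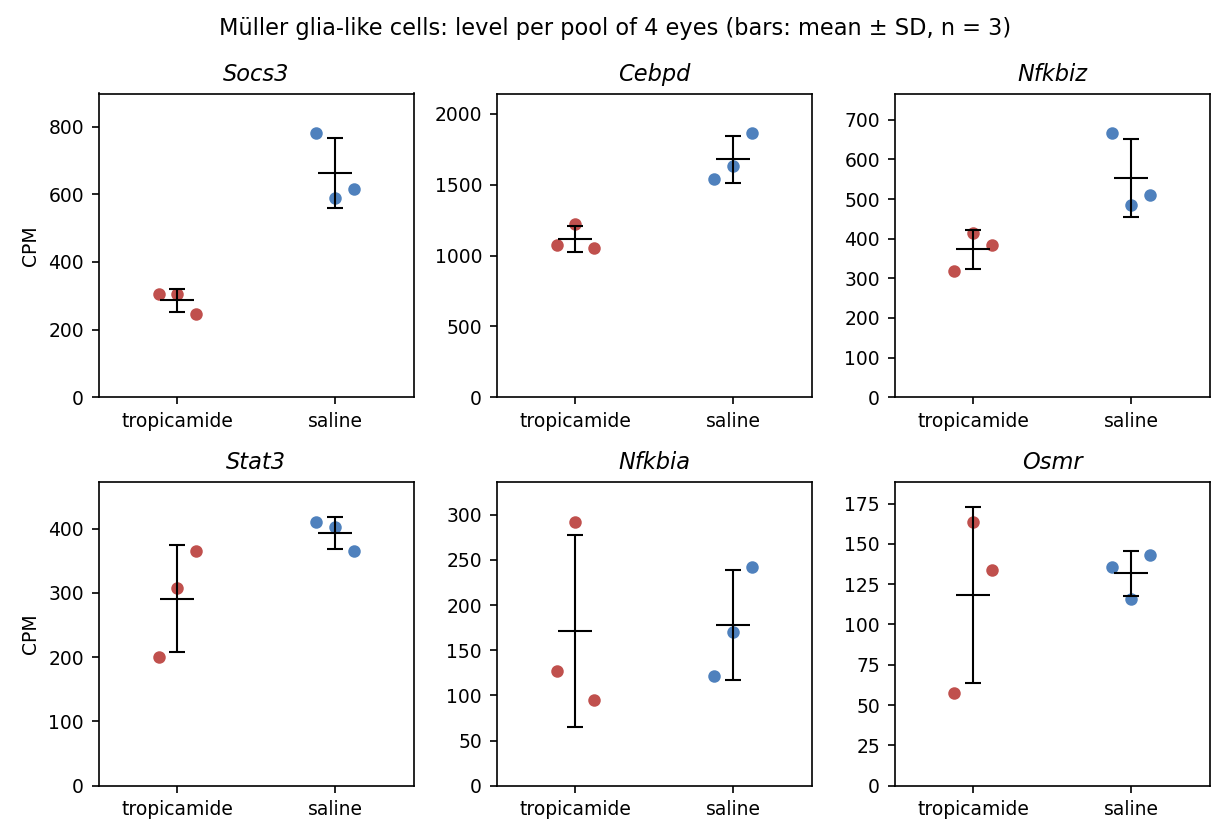
CPM of the 6 genes that passed the filter in Müller glia-like cells, with tropicamide left of saline, each point a pool of 4 eyes and bars the mean ± SD. Socs3, Cebpd and Nfkbiz have every tropicamide pool below every saline pool.

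The Müller glia-like cells differed between the groups in other ways. Their median depth per cell was 1620, 1781 and 1285 UMIs with tropicamide and 3170, 7464 and 5037 UMIs with saline. The median mitochondrial share was 2.60%, 2.81% and 3.51% with tropicamide and 1.13%, 1.52% and 1.95% with saline. The summed level of 12 early response genes such as Fos ranged over 13302 to 19038 CPM with tropicamide and 21418 to 24671 CPM with saline, with 10 of the 12 lower and 6 of them not overlapping. The summed level of 6 rod transcripts ranged over 3732 to 7131 CPM with tropicamide and 2615 to 2935 CPM with saline, with all 6 higher and not overlapping. The part of these differences in the results above was not tested.

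The class is made of cluster B8 (378 cells) and the shallow cluster B17 (179 cells), and B17 gave a larger share of the tropicamide cells. In B8 alone the median depth was closer, at 7096, 6375 and 3986 UMIs with tropicamide and 6191, 9202 and 5931 with saline. There Socs3 had 339, 331 and 277 CPM in the tropicamide pools, against 809, 614 and 645 CPM in the saline pools, and it still fell, with a log2 fold change of -1.16. Cebpd kept its direction at -0.56 in B8 and lost its call. With each cell thinned to 2000 UMIs, which left out 138 tropicamide and 115 saline cells, 22.5% of 102 tropicamide cells and 38.1% of 202 saline cells had a Socs3 UMI. Unthinned, the shares were 17.5% and 38.8%. In rod-like cells, which hold little Socs3, the thinned shares were 2.44% with tropicamide and 2.39% with saline, at equal depth. Socs3 was called under all 13 alternatives, with log2 fold changes of -1.30 to -1.05, and the Cebpd call ended under 8 of them, 5 of which left out 1 pool (any pool but tropicamide pool 2). The alternatives reuse the pools on which the genes were chosen, so a kept call describes the processing only.

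In rod-like cells Stat3, the transducer, was lower in the tropicamide pools, while Socs3 and Cebpd overlapped and Nfkbia was higher. Stat3 had 288, 278 and 278 CPM in the tropicamide pools, against 387, 370.4 and 389.8 CPM in the saline pools. It averaged 281 ± 5.73 CPM with tropicamide and 382 ± 10.5 CPM with saline (SD, n = 3 each), with a log2 fold change of -0.43 ± 0.04, and fell. The pools were far apart relative to their spread, from 14245 UMIs with tropicamide and 20493 with saline. Nfkbia had 107, 114 and 109 CPM in the tropicamide pools, against 89.3, 97.6 and 103 CPM in the saline pools. It rose, with a log2 fold change of 0.20 ± 0.06 and no overlap. Tnfaip3 had 191, 184 and 199 CPM in the tropicamide pools, against 173, 164 and 184 CPM in the saline pools. These pools did not overlap either, and at 0.16 ± 0.05 Tnfaip3 was not called. Socs3 and Cebpd, at 13.7 and 25.7 CPM with tropicamide and 13.4 and 23.3 CPM with saline, overlapped, with log2 fold changes of 0.06 ± 0.16 and 0.17 ± 0.19.

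In rod-like cells 9 of the 10 genes passed the filter; 1 was called lower and 1 higher, where 10.3% of 16244 genes were called, and 3 did not overlap, against 31.4% of all genes. Again nothing is read from these shares. Stat3 was lower in all 3 tropicamide pools than in any saline pool in each of the 7 rod clusters with at least 200 cells. In cluster A0, the largest, it had 289, 274 and 299 CPM in the tropicamide pools, against 387, 369 and 417 CPM in the saline pools. In cluster A9 it had 454, 498 and 368 CPM in the tropicamide pools, against 569, 592 and 558 CPM in the saline pools. Levels thus differed between these 7 clusters, and the order of the groups did not. Cluster A7, which scored best for rod markers but was left unnamed, is not among them. There the Stat3 pools of the groups overlapped, with a log2 fold change of -0.06. For Nfkbia all tropicamide pools lay above all saline pools in 1 of the 7 clusters, and its tropicamide mean was lower in 0 of them. For Tnfaip3 the pools were so separated in 2 clusters, and its tropicamide mean was lower in 2 clusters. The part of the cluster make-up in the pooled values was not tested. With each rod thinned to 2000 UMIs, 38.3% of tropicamide rods and 46.9% of saline rods had a Stat3 UMI. Median depth was 2021 to 2059 UMIs with tropicamide and 2148 to 2255 with saline, and the early response genes summed to 1235 to 1753 CPM with tropicamide and 1599 to 2148 CPM with saline; their part was not tested. Stat3 was called under all 13 alternatives (-0.45 to -0.42), while the Nfkbia call ended under 7 of them, 5 of which left out 1 pool (any pool but saline pool 3), with values of 0.12 to 0.25. Here too a kept call describes the processing only, since the genes were chosen on these pools.

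**Figure D3:**
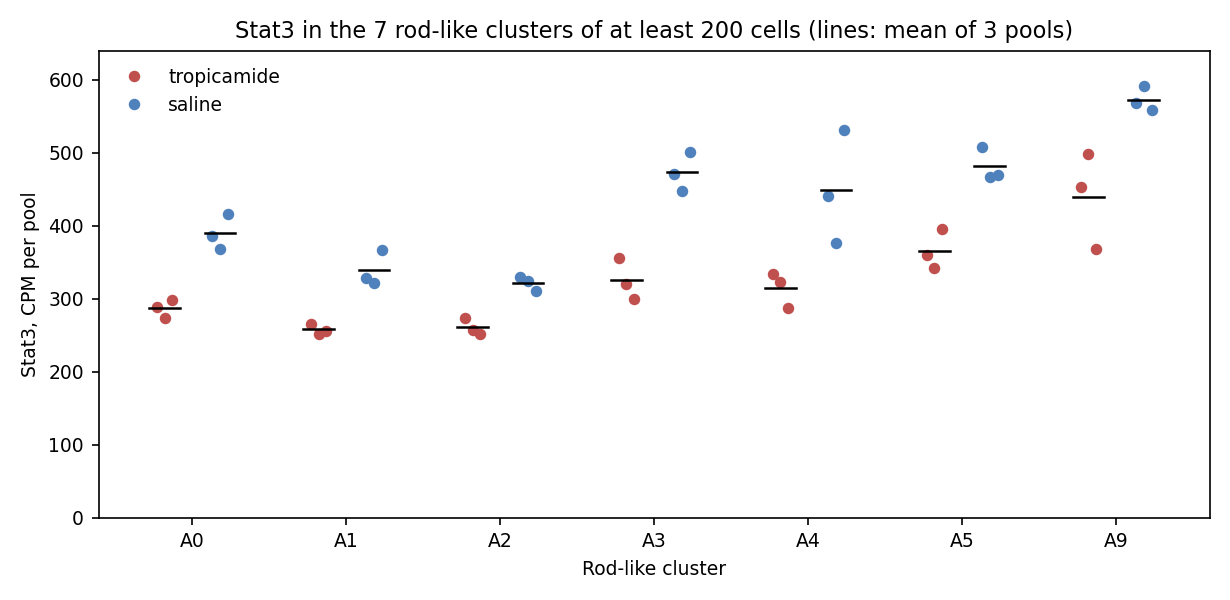
Stat3 in CPM by rod cluster and pool, with tropicamide left of saline in each cluster, each point a pool and lines the mean of 3 pools. In all 7 clusters the tropicamide points lie below the saline points.

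In fibroblast-like cells, the main source of Il6, every gene that could be tested was lower on average with tropicamide, but none was called and the tropicamide pools differed widely. Il6 had 19.9, 91.4 and 183 CPM in the tropicamide pools, against 269.5, 209 and 137 CPM in the saline pools, from 1851 and 2719 UMIs. The groups overlapped, and the log2 fold change was -1.11 ± 0.59. Osmr had 52.9, 90.9 and 121 CPM in the tropicamide pools, against 164, 182 and 128 CPM in the saline pools. Its tropicamide pools all lay below its saline pools, with a log2 fold change of -0.90 ± 0.28. Nfkbiz had 131, 228 and 347 CPM in the tropicamide pools, against 366, 413 and 352 CPM in the saline pools, without overlap, and a log2 fold change of -0.74 ± 0.30. Stat3 had 253, 299 and 298 CPM in the tropicamide pools, against 359.7, 329.7 and 325 CPM in the saline pools, also without overlap, at -0.33 ± 0.11. Tropicamide pool 1 was the lowest pool for each of these 4 genes.

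Socs3 showed the width of the spread, with 188, 469 and 709 CPM in the tropicamide pools, against 765, 711 and 612 CPM in the saline pools. Tropicamide pool 1 was far below the rest and tropicamide pool 3 lay among the saline pools, and the log2 fold change was -0.67 ± 0.38. The remaining members were Map3k8 at -0.52 ± 0.27, Tnfaip3 at -0.47 ± 0.21, Nfkbia at -0.42 ± 0.21 and Cebpd at -0.29 ± 0.25, all overlapping, and Lif had 27 UMIs in each group and was not tested. Of the 9 genes tested 9 were below 0, with a median of -0.52, against 0.01 over all genes, of which 49.1% were below 0. The 3 without overlap stand beside 19.6% of all genes. The test called 0% of the 13440 genes in this class, where 1560 genes had an unadjusted p under 0.05 and DESeq2 called 129.

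Without tropicamide pool 1 the 9 genes stayed below 0 and uncalled, with log2 fold changes of -0.28 for Socs3, -0.02 for Cebpd, -0.62 for Il6, -0.62 for Osmr, -0.43 for Nfkbiz and -0.22 for Stat3. Without tropicamide pool 3, Osmr (-1.22) and Nfkbiz (-1.17) were called. Tropicamide pool 1 was also lowest within each of the 4 fibroblast clusters of at least 200 cells for Socs3, Cebpd, Nfkbiz, Map3k8, Il6 and Osmr. The 12 early response genes moved with them, at 8769 to 15226 CPM with tropicamide and 15549 to 17057 CPM with saline, with 12 of 12 lower and 6 not overlapping; their part was not tested. Depth was alike, at medians of 13899 to 15816 UMIs with tropicamide and 14105 to 15082 with saline. By cluster, Il6 separated the groups in 1 of these 4 clusters and overlapped in the others. That cluster was B14, a small one led by Has1, Pi16, Ccl7, Cxcl1 and Ccl2. There Il6 had 60.0, 217 and 257 CPM in the tropicamide pools, against 373, 397 and 394 CPM in the saline pools. Those pools rest on 8, 40 and 55 tropicamide cells and 34, 31 and 35 saline cells.

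**Figure D4:**
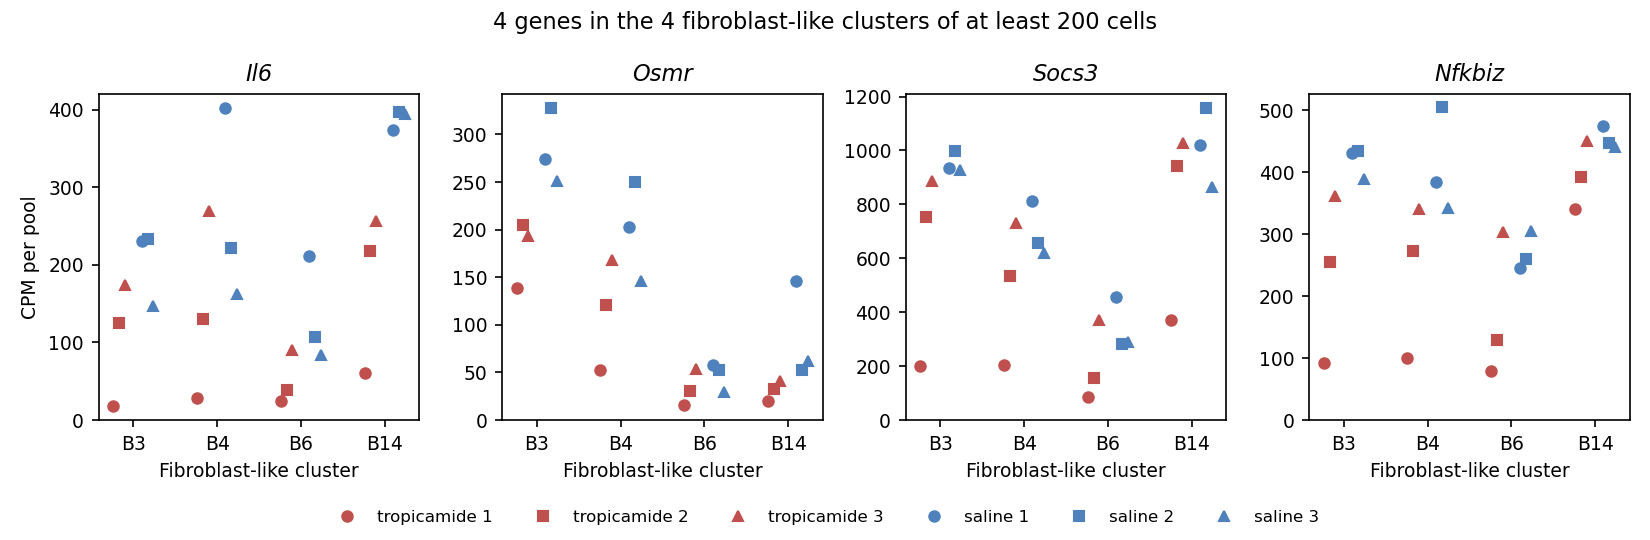
CPM of Il6, Osmr, Socs3 and Nfkbiz in the 4 fibroblast-like clusters of at least 200 cells, with tropicamide left of saline, each point a pool and its shape the pool's number. Tropicamide pool 1 is the lowest point in every cluster for these 4 genes. In B14 all Il6 points with tropicamide lie below those with saline, and in the other clusters the Il6 points of the groups overlap.

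Clusters B2 and B5 hold high levels of Socs3 and Cebpd, and both genes were lower on average with tropicamide in each. In B2 Socs3 had 789.8, 889 and 805 CPM in the tropicamide pools, against 1049.6, 1189 and 1089.9 CPM in the saline pools. Map3k8 had 76.7, 79.2 and 95.0 CPM in the tropicamide pools, against 128, 129 and 159.6 CPM in the saline pools. Neither gene overlapped between the groups, and the log2 fold changes were -0.47 ± 0.10 and -0.82 ± 0.15. Cebpd (-0.26 ± 0.10) and Osmr (-0.38 ± 0.14) did not overlap either. None of the 9 genes tested was called, all 9 were below 0, and the median was -0.27; edgeR called 0.0465% of 8596 genes and the groups did not overlap for 14.8% of genes, against 4 of these 9. DESeq2 called Socs3 and Map3k8. The early response genes summed to 22599 to 26023 CPM with tropicamide and 28861 to 33073 CPM with saline, with 12 of 12 lower; their part was not tested.

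In B5, the main site of Lif, this cytokine had 8.35, 9.32 and 4.86 CPM in the tropicamide pools, against 23.0, 22.3 and 33.1 CPM in the saline pools. The groups did not overlap, at 31 and 56 UMIs, with a log2 fold change of -1.84 ± 0.34. Lif passed the low-count filter through its saline pools alone, so nothing is read from this separation. Cebpd had 1653, 1680.5 and 1448 CPM in the tropicamide pools, against 2372, 1903 and 1888 CPM in the saline pools, without overlap, and a log2 fold change of -0.41 ± 0.11. Socs3 had 768, 885 and 848 CPM in the tropicamide pools, against 1024, 907 and 924 CPM in the saline pools. It did not overlap either, at -0.24 ± 0.10, and Stat3 was at 0.07 ± 0.11. All 10 genes passed the filter in B5, Lif through its saline pools alone. Of the 10 genes 9 were below 0 with none called, and 3, Lif included, did not overlap. Of all 8962 genes 0.0781% were called and 12.9% did not overlap. The early response genes summed to 26704 to 30151 CPM with tropicamide and 28786 to 35379 CPM with saline; their part was not tested.

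Endothelial-like cells had the highest mean Socs3 and Nfkbia levels of the classes above and small differences between the groups. Socs3 had 1058, 1006 and 929.5 CPM in the tropicamide pools, against 1158, 1036 and 972 CPM in the saline pools. Nfkbia had 1377, 1726 and 1864 CPM in the tropicamide pools, against 1469, 1879.5 and 1691 CPM in the saline pools. Both genes overlapped widely, with log2 fold changes of -0.09 ± 0.10 and -0.03 ± 0.13. Nfkbiz had 372, 401 and 424 CPM in the tropicamide pools, against 517, 435 and 509 CPM in the saline pools, the only member without overlap among the 9 tested here, at -0.31 ± 0.11. Of these 9 genes 8 were below 0 with a median of -0.10, and none was called. The test called 0% of 10376 genes, where 666 had an unadjusted p under 0.05 and DESeq2 called 2, and 12.4% of genes did not overlap. The early response genes summed to 21092 to 23098 CPM with tropicamide and 23794 to 28255 CPM with saline; their part was not tested.

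The other tested classes held few UMIs of most of these genes, although cone-like cells held 1100 Stat3 and 354 Socs3 UMIs. Cluster A14, led by Plac9, Igfbp6 and Myoc, scored low and nearly alike for rod (0.404) and fibroblast (0.386) markers. Its cells were shallow, at a median of 955.5 UMIs. Its rod transcripts summed to 13859 to 20150 CPM with tropicamide and 12920 to 18511 CPM with saline. In cluster A14 Socs3 had 116, 115 and 60.5 CPM in the tropicamide pools, against 451, 165 and 183 CPM in the saline pools, without overlap, from 39 and 70 UMIs, and a log2 fold change of -1.44 ± 0.39; it was 1 of 4 genes tested, all 4 below 0. None was called there, among 0% of 1836 genes (68 with an unadjusted p under 0.05, 0 by DESeq2), and 8.66% of genes did not overlap. In retinal pigment epithelium-like cells 4 genes were tested and none was called or without overlap, beside 0.124% and 13.3% of 4826 genes; Osmr was at -0.43 ± 0.22. In cluster A7 3 genes were tested with the same outcome, beside 0.37% and 16.4% of 4863 genes, and Stat3 was at -0.06 ± 0.17. In cone-like cells Stat3 was at -0.29 ± 0.16, and none of 4 genes tested was called or without overlap, beside 0.028% and 9.9% of 7140 genes.

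Classes with fewer than 30 cells in some pool were not tested. In corneal or conjunctival epithelium-like cells, left after the cornea was cut away, Socs3 had 15.8, 17.4 and 6.05 CPM in the tropicamide pools, against 246, 432 and 56.1 CPM in the saline pools. Those values rest on 29 and 700 UMIs, in 33, 31 and 13 tropicamide cells and 45, 26 and 35 saline cells. Socs3, Nfkbiz, Tnfaip3 and Map3k8 were lower in every tropicamide pool, 4 of the 8 genes with at least 30 UMIs, where 16.1% of 9956 such genes did not overlap. Early response genes overlapped there, at 5153 to 6928 CPM with tropicamide and 4296 to 8498 CPM with saline, and their part was not tested. Median depth was 10712, 19496 and 23900 UMIs in the tropicamide pools, against 29168, 14566.5 and 37471 UMIs in the saline pools. In pericyte-like cells Osmr had 223, 338 and 310.0 CPM in the tropicamide pools, against 471, 779 and 499 CPM in the saline pools. It was the only one of 6 such genes without overlap, beside 14.3% of 3499 genes, in 105 cells. In lymphatic endothelial-like cells Stat3 and Nfkbiz were lower without overlap, 2 of 8 genes, beside 9.05% of 3382. In smooth muscle-like cells Il6 had 181, 242 and 331 CPM in the tropicamide pools, against 126, 319 and 112 CPM in the saline pools, and 0 of 9 genes separated the groups, beside 12.2% of 8072.

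With all cells summed, the picture differed from that within classes. Stat3 had 319, 315 and 299 CPM in the tropicamide pools, against 379, 365 and 373 CPM in the saline pools, the only member of the 10 without overlap, and a log2 fold change of -0.23 ± 0.08. Socs3 averaged 273 ± 25.7 CPM with tropicamide and 252 ± 47.6 CPM with saline (SD, n = 3 each), at 0.15 ± 0.16, and Cebpd was at 0.30 ± 0.18 and Nfkbia at 0.28 ± 0.18, all above 0. None was called; edgeR called 0.01% of 19986 genes and 21.3% did not overlap. Rod-like cells were 6100 of 8718, 8659 of 11998 and 9132 of 11316 cells in the tropicamide pools. In the saline pools they were 7503 of 8705, 8656 of 9546 and 7842 of 9813 cells. In such a sum the share of each class and the level per cell cannot be told apart, and the part of each was not tested.

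**Figure D5:**
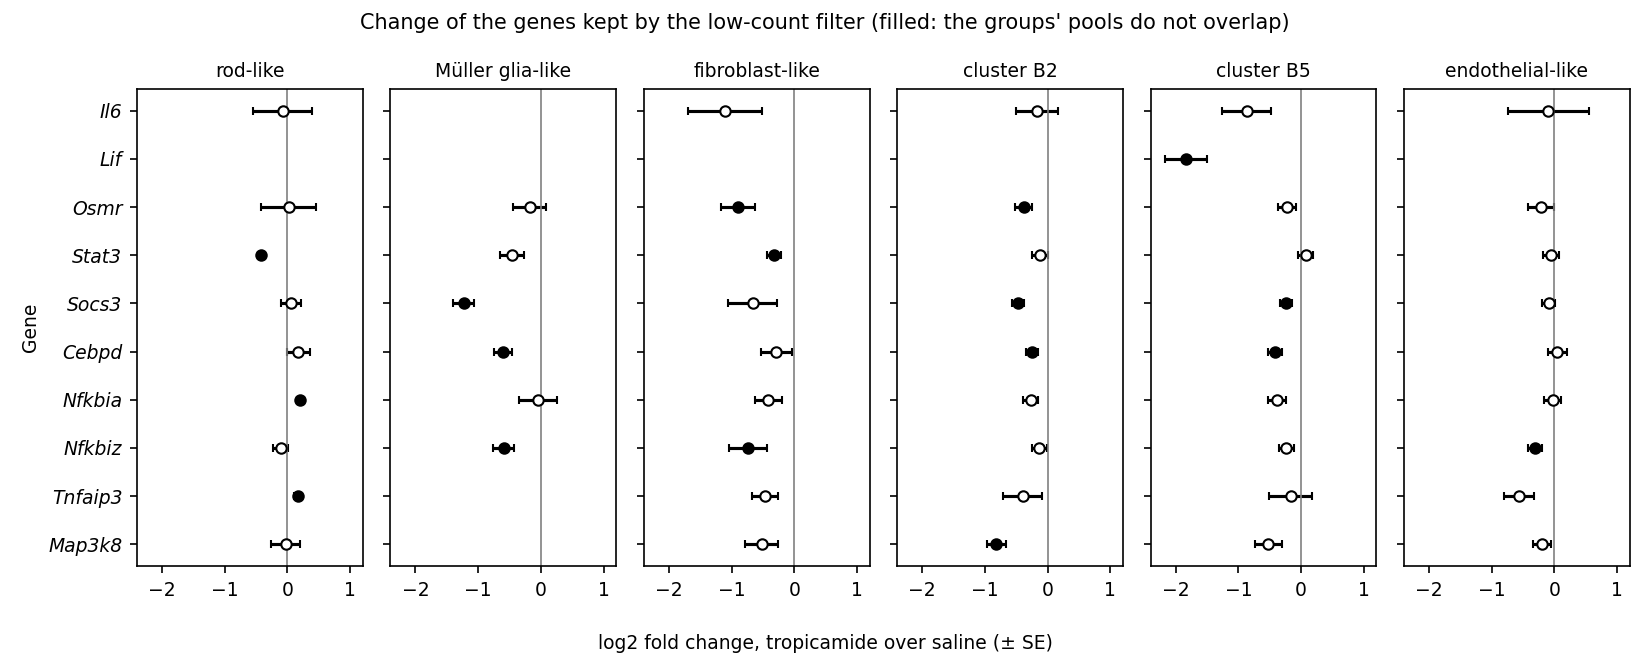
Log2 fold changes of tropicamide over saline, with standard errors, for each gene that passed the filter in 6 classes; filled points are genes whose groups do not overlap. Points below 0 prevail in Müller glia-like, fibroblast-like, B2, B5 and endothelial-like cells, and Stat3 in rod-like cells lies below 0 with an error bar hidden by its point.

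Of 97 other genes of the pathways, listed for their known roles, 81 could be tested in rod-like cells, 2 rose and 6 fell, so 8 of 81 were called where 10.3% of all genes were, a share near that of all genes. Tnip2, a partner of Tnfaip3, had 44.1, 45.2 and 46.3 CPM in the tropicamide pools, against 53.8, 58.6 and 58.2 CPM in the saline pools, and fell by 0.31 on the log2 scale (adjusted p = 0.00859, edgeR's quasi-likelihood test with Benjamini-Hochberg adjustment, here and below), a call lost in the largest cluster alone (-0.25, 0.0507). Rel, an NF-kB subunit, had 28.7, 26.1 and 25.4 CPM in the tropicamide pools, against 33.6, 32.4 and 42.0 CPM in the saline pools, and a log2 fold change of -0.42 ± 0.09 (adjusted p = 0.0183, edgeR), and its call was lost without tropicamide pool 2 (0.0969) or 3 (0.064). Ripk1, Map3k14 and Ptpn2, named after their values were seen, also fell. Jak1, the kinase paired with gp130, rose (0.19 ± 0.05, adjusted p = 0.0309, edgeR), as did Chuk, an IkB kinase (0.20 ± 0.06, adjusted p = 0.0465, edgeR). Both calls were lost when tropicamide pool 1 or 2 or saline pool 1 or 2 was left out, with adjusted p of 0.0557 to 0.189, and that of Jak1 also without tropicamide pool 3 (0.0712). That of Chuk was also lost with the replicate block (0.0653), the stricter cell filter (0.0623) and the largest cluster alone (0.114).

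In Müller glia-like cells 48 of these genes were tested and 1 fell, where 1.58% of all genes were called. Pim1, a kinase gene induced by Stat3, had 127, 143 and 101 CPM in the tropicamide pools, against 257, 275 and 189 CPM in the saline pools. The groups did not overlap, and the log2 fold change was -0.97 ± 0.21 (adjusted p = 0.027, edgeR). The call was lost without tropicamide pool 1 (0.0542) or 3 (0.132) or saline pool 1 (0.178) or 2 (0.121), and with the stricter cell filter (0.0622), without doublet removal (0.055) and in the largest cluster alone (0.0778). In fibroblast-like cells 84 were tested, 62 were below 0 and none was called, where 49.1% of all genes were below 0 and 0% were called. In B2 51 of 71 were below 0, beside 50.1% of all genes, in B5 37 of 69, beside 50.7%, and in endothelial-like cells 41 of 80, beside 49.8%, with none called.

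Over the 60 points formed by 10 classes and 6 pools, and 17894 genes, the genes whose levels ran most like Nfkbiz were Fos (Pearson r of 0.966), Jun (0.961) and Junb (0.953), which are early response transcription factors. Those most like Socs3 were Hivep2 (0.95), Junb (0.946) and Fosb (0.945). Cebpd ran with Zfp36l1 (0.958), Nfkbia with Mcl1 (0.927), Stat3 with Ccnl1 (0.961), Osmr with Maf (0.94), Map3k8 with Sptbn1 (0.909), Il6 with Scin (0.879) and Tnfaip3 with Heatr5a (0.869). Among the members Socs3 and Nfkbiz had the highest r (0.874), followed by Socs3 and Map3k8 (0.835) and by Nfkbia and Nfkbiz (0.831). Tnfaip3 stood apart, with r of -0.404 (Osmr) to 0.287 (Stat3). These values describe differences between classes that share pools and depth.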

How the data were processed

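Single-cell RNA was measured in 6 libraries, 3 per group. The deposited matrices hold raw UMI counts per gene and barcode, which the authors produced using Cell Ranger (8.0.1 per the file headers), STAR and GRCm39 (per the submitters' processing notes); annotation release and intron counting are not stated. A protocol for bone tissue and sorting stands in the labels and was not used. The members and gene lists were chosen with earlier results of these data known. Promoter sequences are from RefSeq.

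Barcodes under 500 UMIs or 300 genes or above 20% mitochondrial UMIs were removed (416 of 66434), and 5922 scored as doublets (top 0.8% per 1000, against 2 simulated per barcode, 50 neighbours) were dropped, leaving 60096. Leiden clustering (2000 variable genes, 30 components, 20 neighbours, resolution 1) gave 55 clusters; 37 were named from 31 marker lists, with score limits set after the clusters were seen, and 18 were not, so differences from the study's own cell types may come from rebuilt names. Counts were summed per pool and class and tested with edgeR 4.0.16 (quasi-likelihood, TMM, filterByExpr, Benjamini-Hochberg, threshold 0.05) in 10 classes that had 30 cells or more per pool, and over all cells; the change in a class minus that in rods was tested with limma 3.58.1. "Rose", "fell" and "called" refer to that threshold. All members were named, with pathway genes named where called at 20 CPM or more, and not overlapping, up to 3 per direction and class; 1 result under this rule is not reported here. Tests were checked on simulated data. Eyes within a pool cannot be told apart, so p-values measure the spread between pools. Alternatives were DESeq2 1.42.0, no low-count filter, no doublet removal, a stricter cell filter (1000 UMIs, 500 genes, 10% mitochondrial), the largest cluster only, each pool left out and a replicate block.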

Additional observations from a re-analysis of the deposited data

Results flagged for a closer look

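The change of 2 pathway genes differed between cell classes when the difference itself was tested, with limma across all genes and Benjamini-Hochberg adjustment, on log2 CPM of the class minus that of rod-like cells in the same pool. Cebpb, a partner of Cebpd in acute-phase transcription, had 182, 292 and 147 CPM in the tropicamide pools, against 391, 255 and 437 CPM in the saline pools in Müller glia-like cells. In rod-like cells it had 9.62, 9.29 and 7.42 CPM in the tropicamide pools, against 6.42, 4.08 and 7.71 CPM in the saline pools. The groups overlapped in both classes, and Cebpb was called in neither. The change in Müller glia-like cells minus that in rod-like cells was -1.43 (SE 0.195, adjusted p = 0.00503), 1 of 88 such differences among 6636 genes. The part of the depth, early response and rod transcript differences between the Müller glia-like pools was not tested. Jak2, a kinase of the gp130 receptors, had 41.0, 41.9 and 35.8 CPM in the tropicamide pools, against 59.8, 59.5 and 58.5 CPM in the saline pools in fibroblast-like cells. In rod-like cells it had 44.1, 45.9 and 40.9 CPM in the tropicamide pools, against 41.7, 46.5 and 41.7 CPM in the saline pools, so the groups overlapped there and not in fibroblast-like cells. The change in fibroblast-like cells minus that in rod-like cells was -0.67 (SE 0.102, adjusted p = 0.0394), 1 of 14 such differences among 12253 genes.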

How the results depend on the processing

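Of the members' 77 log2 fold changes over the classes, 49 kept their sign under every alternative, 28 changed it under at least 1, 2 lost a call and 10 gained one, and no called change reversed; the causes were not tested. Members called in rod-like cells numbered 2, and 1 without doublet removal or with the largest cluster only. In Müller glia-like cells they numbered 2, and 1 with the stricter cell filter, without doublet removal or with the largest cluster only. With no low-count filter 4 were called in fibroblast-like cells, 2 in B2 and 2 in B5, against 0; DESeq2 called 2 in B2, and 1 was called there without doublet removal. Pathway genes called in rod-like cells numbered 8, against 13 with no filter and 5 with the largest cluster only. In Müller glia-like cells 1 became 2 with DESeq2, 6 with no filter, and 0 with the stricter filter, without doublet removal or with the largest cluster only. Pathway calls of 0 became 2 with DESeq2 and 16 with no filter in fibroblast-like cells, 5 with no filter and 2 with the largest cluster only in endothelial-like cells, 2 in B2 and 1 in B5 with no filter, and 4 with DESeq2 over all cells. Leaving out each pool gave 1 to 3 members and 2 to 11 pathway genes in rod-like cells, 1 to 2 members and 0 to 4 pathway genes in Müller glia-like cells, 0 to 2 members and 0 to 6 pathway genes in fibroblast-like cells (both highest without tropicamide pool 3), and 0 to 1 pathway genes in B5.

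Calls over all genes moved by over 1.5 times as follows. DESeq2 against edgeR gave 129 and 0 in fibroblast-like cells, 30 and 4 in B2, 17 and 7 in B5, 8 and 18 in A7, 2 and 0 in endothelial-like, 1 and 2 in cone-like cells and 495 and 2 over all cells. With no filter there were 536, 120, 87, 28, 160 and 5 in those classes, 8 over all cells, 20 against 6 in retinal pigment epithelium-like cells, 221 against 108 in Müller glia-like cells and 26 against 0 in A14. With the largest cluster only there were 26 in Müller glia-like, 14 in retinal pigment epithelium-like, 5 in endothelial-like and 4 in cone-like cells. Same-numbered pools did not deviate together (correlations of -0.497 to 0.172, and no class with every pair over 0.1). So few pools cannot exclude a pairing by number, and the fits as reported used none. With a replicate block the members called stayed at 2 in rod-like and 2 in Müller glia-like cells, pathway genes were 6 and 1, and calls over all genes were 1231 in rod-like, 161 in Müller glia-like, 18 in retinal pigment epithelium-like, 8 in B2, 3 in B5 and 0 in cone-like cells. Shares of cells and sparse members (Lif, Il6 in most classes, Map3k8 in Müller glia-like cells) are limited by counting error.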

Other observations

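The receptor chains for these cytokines, looked at after their values were seen, differed among themselves in where they were high. Il6ra, the chain that makes a cell respond to Il6 itself, averaged 47.1 ± 3.48 CPM in fibroblast-like cells, the same cells that held most Il6 (SD over 6 pools), and 24.5 ± 10.0 CPM in cluster B5. It averaged 0.354 ± 0.0728 CPM in rod-like cells, from 37 UMIs. Il6st, which encodes gp130, was found in all 10 classes tested, with 204 ± 19.4 CPM in fibroblast-like, 141 ± 19.3 CPM in Müller glia-like and 62.9 ± 3.34 CPM in rod-like cells. Lifr, the receptor for Lif, averaged 206 ± 23.7 CPM in cluster B2, 203 ± 50.7 CPM in endothelial-like, 119.9 ± 6.18 CPM in rod-like and 36.5 ± 11.4 CPM in Müller glia-like cells. It was lower, at 21.0 ± 8.98 CPM, in cluster B5, where Lif was highest. Osm, the ligand of Osmr, had at most 4 UMIs in any of these classes.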
